A study of Mus musculus with 12 samples.

Results

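The 10 genes described here encode apolipoproteins, the protein parts of lipoprotein particles: Apoa1, Apoa2, Apoa4, Apoa5, Apob, Apoc1, Apoc2, Apoc3, Apoe and Apom. The rule names the genes and sets no threshold on a measured value, but the genes were chosen with earlier results of these data known. All 10 were found among the 18193 genes on the array that are listed with a symbol of their own. The 10 genes have 16 probe sets in all, and each gene is read from its probe set of highest mean over the 12 arrays. Levels are log2 intensities, so a difference of 1 is a change of the signal by a factor of 2.

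RNA came from the livers of C57Bl/6 mice aged 3 months and was hybridised to Affymetrix GeneChip Mouse 430 2.0 arrays, 1 colour per array. The 3 groups hold 4 arrays each: wild type without an agent, Atp7b-/- without an agent, and Atp7b-/- given supplemental zinc. Atp7b encodes the copper pump of hepatocytes, which is lost in human Wilson disease. The labels do not give the kind of Atp7b allele, the zinc dose and its duration, or the animals' sex. The labels do not say that each array came from a separate animal, so p-values measure the spread between arrays, which may be technical in part. No zinc-treated wild type group was analysed here, so the effect of zinc was compared in Atp7b-/- liver alone.

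The liver makes most of the body's plasma apolipoproteins. Apob is the scaffold of very low density lipoprotein, which carries triglyceride out of the liver, while Apoa1 and Apoa2 are the main proteins of high density lipoprotein. Apoc2 is the cofactor that lipoprotein lipase needs, Apoc3 hinders that lipase and particle uptake, and Apoa5 promotes triglyceride clearance. Apoe is a ligand for the uptake of remnants by receptors, Apoc1 hinders this uptake, Apoa4 is made in intestine and liver on lipid loading, and Apom carries sphingosine-1-phosphate on high density lipoprotein. Several of these genes lie side by side: Apoe, Apoc1, Apoc4 and Apoc2 on chromosome 7, and Apoa1, Apoc3, Apoa4 and Apoa5 on chromosome 9.

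The promoters of Apoc2, Apoa5 and Apob are shown because these 3 genes carry the changes described below. Each sequence is 300 bases from RefSeq on build GRCm38.p6, written 5′ to 3′ on the gene's strand, from 250 bases before the start site to 50 after it. Of the 10 genes, 8 have an entry in that table, with 12 start sites in all. Capitals mark matches to 2 short motifs, TATAAA and AGGTCA, the letters of a TATA box and of a nuclear receptor binding motif. The Apoc2 window is chr7:19677892-19678191 on the minus strand, the Apoa5 window chr9:46268358-46268657 on the plus strand, and the Apob window chr12:7977427-7977726 on the plus strand.
Apoc2: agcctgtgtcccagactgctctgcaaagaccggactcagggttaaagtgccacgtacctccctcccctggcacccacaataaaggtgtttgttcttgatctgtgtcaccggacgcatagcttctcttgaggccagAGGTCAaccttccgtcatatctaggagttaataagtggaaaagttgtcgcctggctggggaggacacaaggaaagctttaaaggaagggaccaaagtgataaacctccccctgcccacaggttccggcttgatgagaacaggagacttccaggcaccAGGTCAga
Apoa5: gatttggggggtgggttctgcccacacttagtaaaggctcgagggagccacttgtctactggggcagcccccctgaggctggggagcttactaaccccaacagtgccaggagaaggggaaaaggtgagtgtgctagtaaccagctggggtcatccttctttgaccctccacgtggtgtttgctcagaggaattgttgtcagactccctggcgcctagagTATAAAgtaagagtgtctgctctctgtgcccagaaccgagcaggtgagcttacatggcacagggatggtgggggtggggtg
Apob: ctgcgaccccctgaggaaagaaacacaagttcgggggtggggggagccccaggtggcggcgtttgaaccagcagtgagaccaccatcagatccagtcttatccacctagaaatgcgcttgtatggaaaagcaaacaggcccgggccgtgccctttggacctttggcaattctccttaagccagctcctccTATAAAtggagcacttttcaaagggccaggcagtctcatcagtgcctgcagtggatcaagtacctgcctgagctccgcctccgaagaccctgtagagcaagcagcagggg
The Apoc2 window holds AGGTCA at position -115 from the start site and again at position 43, and no TATAAA. In the Apoa5 window TATAAA lies at position -31, and in the Apob window at position -60. Apoa5 has another listed start site, from which the same match is at position -56. Both strands were searched: TATAAA occurs in 13.6% and AGGTCA in 16.3% of the 32851 promoter windows of the table. Apoa2 and Apoe also hold TATAAA and Apoa2 also holds AGGTCA. No window of the 8 genes holds CAAAGTCCA, the letters of an HNF4 site, found in 0.475% of all windows. None holds TGCACNC or its variant TGCGCNC, the core of the metal response element, found in 25.7%. A match describes the letters in the window and is no evidence of binding.

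The signal of Atp7b itself ran from 8.51 to 8.69 in wild type, from 6.91 to 7.25 in Atp7b-/- and from 6.57 to 6.98 in zinc-treated Atp7b-/- arrays. The labels do not place its probe set relative to the altered part of Atp7b. The 12 hepatocyte markers averaged 13.4 to 13.8 on every array. Pancreatic acinar markers were raised on zinc-treated replicates 2 and 3, with the highest list mean at 9.59 against at most 5.80 in the other groups. The correlation of untreated Atp7b-/- replicate 1 with the arrays of its group had a median of 0.991, where the other 3 had 0.996. The mean difference between control probe sets at the 3′ and the 5′ end of transcripts, a sign of RNA quality, was 0.79 to 0.88 in Atp7b-/-, 0.62 to 0.78 in wild type and 0.54 to 0.74 with zinc. Every untreated Atp7b-/- array therefore lay above every array of the other groups on this mean, at the closest with 0.792 against 0.784 in wild type. Actin and Gapdh, the controls averaged, did not separate untreated Atp7b-/- from wild type when taken singly. For actin, wild type replicate 2 read 1.37 and untreated replicate 1 read 1.26. For Gapdh, wild type replicate 1 read 0.344 and untreated replicate 4 read 0.325. Gapdh alone did separate untreated from zinc-treated arrays, with at least 0.325 in untreated against at most 0.271 with zinc. For actin these groups overlapped narrowly, with untreated replicate 1 at 1.25555 and zinc-treated replicate 3 at 1.25595. The part of RNA quality in the results below was not tested.

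In Atp7b-/- against wild type liver, Apoc2 rose 1.75-fold and Apoa5 fell by 22.4%, while the other 8 genes did not pass the test. The test was limma with p-values adjusted over all 18193 genes and a threshold of 0.05. That is 2 of 10 members, against 24.6% of all genes called in this comparison (14.3% higher and 10.3% lower), a share near the background. The arrays of both groups did not overlap for 5 members, Apoa1, Apoa5, Apob, Apoc2 and Apoe, against 26.4% of all genes. For Apoa1 the groups all but met, with the highest untreated array at 14.7682 and the lowest wild type array at 14.7683. The median change of the 10 was -0.01, and that of all genes -0.05.

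With zinc, 1 of 10 members passed against untreated Atp7b-/-: Apoc2 fell by 28.9%. The share of all genes called was 6.54%, of which most were lower (4.84%, against 1.70% higher). Groups did not overlap for Apob, Apoc2 and Apoe, 3 of 10 members against 15.3% of all genes. Between zinc-treated Atp7b-/- and wild type, Apoc2 was higher and Apoa5 lower, 2 of 10 members, against 7.62% of all genes (4.89% higher and 2.73% lower). Apoa5, Apoc2 and Apoc3 did not overlap there, against 14.3% of all genes. The 3 comparisons share their groups, so their results are not independent of each other. In liver RNA, fewer cells of a type and less RNA per cell cannot be told apart.

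**Figure D1:**
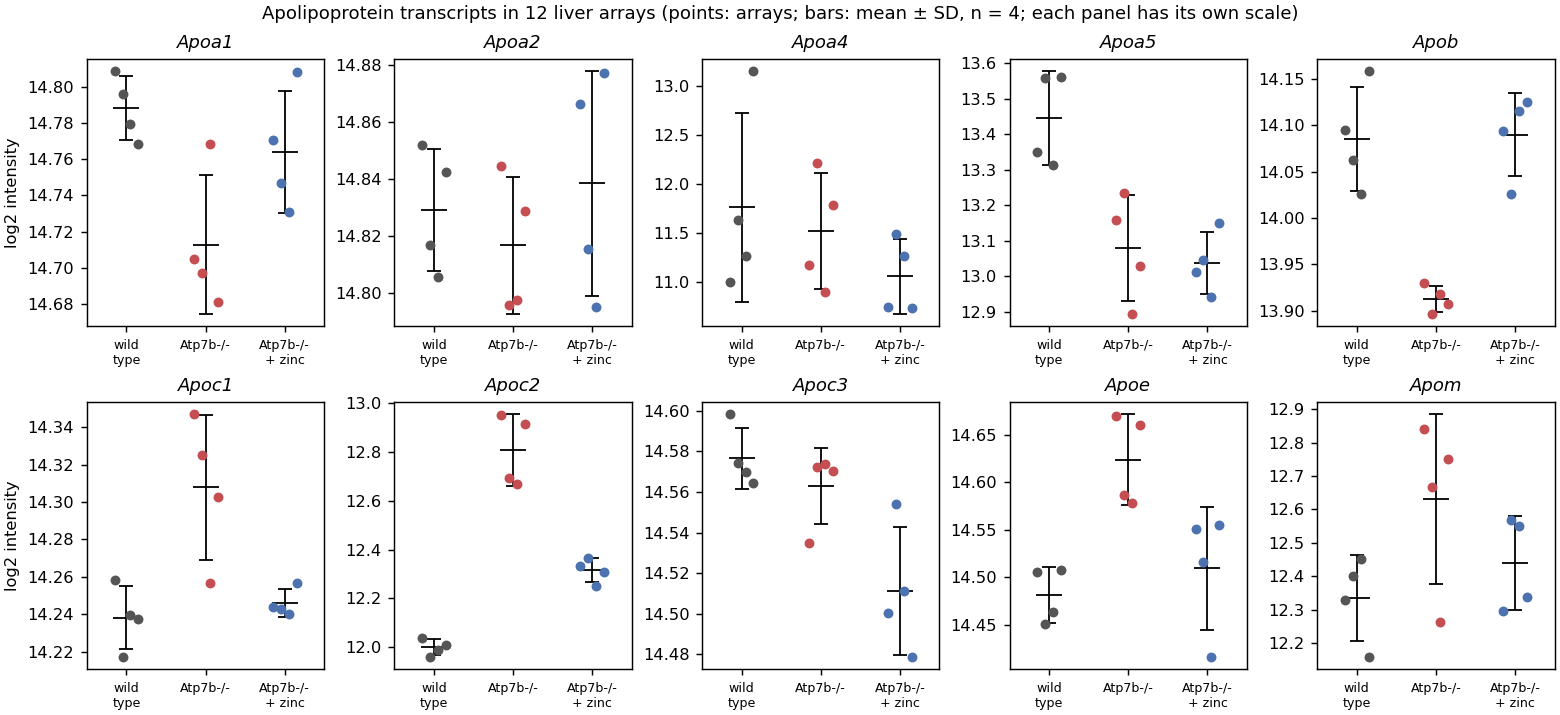
Log2 intensity of the 10 apolipoprotein genes on each of 12 arrays, by group, with the mean and SD of 4 arrays as bars and a separate vertical scale in each panel. The 3 groups are apart for Apoc2, whereas for Apoa5 both Atp7b-/- groups lie between 12.89 and 13.23, below the wild type arrays.

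Apoc2, the cofactor of lipoprotein lipase, separated all 3 groups. Its wild type arrays read 12.04, 11.96, 11.99 and 12.01. The untreated Atp7b-/- arrays read 12.95, 12.70, 12.67 and 12.91. With zinc the readings were 12.33, 12.37, 12.25 and 12.31. No array of one group reached into another, with the order wild type, zinc-treated and untreated from low to high. Means were 11.9997 ± 0.03, 12.81 ± 0.15 and 12.32 ± 0.05 in wild type, untreated and zinc-treated liver (SD, n = 4 each).

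The rise of Apoc2 in untreated Atp7b-/- liver was 0.81 on the log2 scale (95% interval 0.64 to 0.98, SE 0.08, adjusted p = 6.42e-06, limma). Against the untreated group, zinc-treated liver was lower by a log2 change of -0.49 (95% interval -0.66 to -0.33, adjusted p = 0.00217). Against wild type, zinc-treated liver was higher by 0.32 (95% interval 0.15 to 0.48, adjusted p = 0.0242), a fold of 1.24. That last call was lost in 8 of 25 other settings, with adjusted p-values up to 0.115. It was lost with quantile normalization, without wild type replicate 2 or 3, without zinc-treated replicate 1, 2 or 4, and in both settings without zinc-treated replicates 2 and 3. In those 25 settings the change kept to between 0.28 and 0.34, and the other 2 changes of Apoc2 stayed past the threshold. Apoc2 has 1 probe set, so settings that choose among probe sets could not change its values.

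Apoa5, which promotes triglyceride clearance, was lower in both Atp7b-/- groups. In wild type the arrays read 13.35, 13.56, 13.31 and 13.56. Untreated Atp7b-/- liver read 13.16, 13.23, 12.89 and 13.03, and zinc-treated liver 13.01, 13.05, 12.94 and 13.15. Both Atp7b-/- groups lay below every wild type array and overlapped each other. Apoa5 thus differed by -0.37 between untreated Atp7b-/- and wild type (95% interval -0.56 to -0.17, adjusted p = 0.0115, limma). Between zinc-treated Atp7b-/- and wild type the change was -0.41 (95% interval -0.61 to -0.21, adjusted p = 0.0155). Zinc-treated and untreated liver differed by -0.04 (95% interval -0.24 to 0.16, adjusted p = 0.840), an interval that leaves room for changes of either sign. Without zinc-treated replicates 2 and 3 the call against wild type was lost, with an adjusted p of up to 0.133, while the change was -0.36 from fewer arrays.

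Apoc3, the inhibitor of lipolysis and uptake, differed little between groups in absolute size. Its wild type arrays read 14.60, 14.57, 14.57 and 14.56, and those of untreated Atp7b-/- 14.53, 14.57, 14.57 and 14.57. Zinc-treated liver read 14.50, 14.55, 14.51 and 14.48, with every array below every wild type array. The change between zinc-treated and wild type liver was -0.07 (95% interval -0.19 to 0.06, adjusted p = 0.570, limma) and did not pass. The signal of Apoc3 lay 0.68 below the mean array maximum on the log2 scale.

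Apoa4, made in intestine and liver on lipid loading, varied most within groups among the 10 genes. Its wild type arrays read 10.99, 11.63, 11.27 and 13.16. Untreated Atp7b-/- liver read 11.17, 12.21, 10.90 and 11.78, and zinc-treated liver 10.73, 11.49, 11.26 and 10.73. Wild type replicate 4 stood above the other 11 arrays. A second, dimmer probe set of Apoa4 also read highest there, at 12.80, against 9.95 to 11.62 on the other arrays. The list of 11 enterocyte markers averaged 6.74 on that array and 6.50 to 6.75 over all arrays. In that list the growth factor gene Pdgfb was read in place of Sis through a shared symbol. The intestinal enzyme gene Sis is therefore missing from the mean. Changes of Apoa4 were -0.25 (adjusted p = 0.683), -0.46 (adjusted p = 0.556) and -0.71 (adjusted p = 0.344) in the order untreated against wild type, zinc-treated against untreated and zinc-treated against wild type. Without wild type replicate 4 the first of these turned to 0.22 and the third was -0.24.

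Apob, the scaffold protein of very low density lipoprotein, gave different sizes of change with its 2 probe sets. On the brighter one, wild type arrays read 14.10, 14.06, 14.03 and 14.16. Untreated Atp7b-/- arrays read 13.93, 13.90, 13.92 and 13.91. Zinc-treated arrays read 14.09, 14.03, 14.12 and 14.13. Every untreated array was below every array of the other 2 groups, which overlapped. The change in untreated Atp7b-/- was -0.17 (95% interval -0.31 to -0.04, adjusted p = 0.0572, limma) and with zinc 0.18 against untreated (95% interval 0.04 to 0.31, adjusted p = 0.110), so neither passed.

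The dimmer Apob probe set read 11.65, 11.84, 11.82 and 11.49 in wild type liver. In untreated Atp7b-/- it read 10.78, 11.06, 10.91 and 10.71, and with zinc 11.18, 11.31, 11.45 and 11.07. Here the 3 groups did not overlap, with the zinc-treated arrays between the others. In the fit over all 34945 probe sets with 1 gene symbol, the change in untreated Atp7b-/- was -0.84 (adjusted p = 0.000126, limma). Zinc-treated liver differed from untreated by 0.39 (adjusted p = 0.0581) and from wild type by -0.45 (adjusted p = 0.0292).

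Within each array, the difference between both Apob probe sets changed by -0.66 from wild type to untreated Atp7b-/- (exact permutation test, two-sided, p = 0.0286, the smallest that 4 against 4 arrays allow). After adjustment over 18 such tests of probe sets of one gene, p was 0.514, and a single test at the smallest p could not have passed. The files do not say which part of the transcript each probe set reads. Apob was called in untreated Atp7b-/- against wild type in 5 of 25 other settings. These were the mean of all probe sets, the second probe set, a variance trend with intensity, array weights, and dim genes left out.

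**Figure D2:**
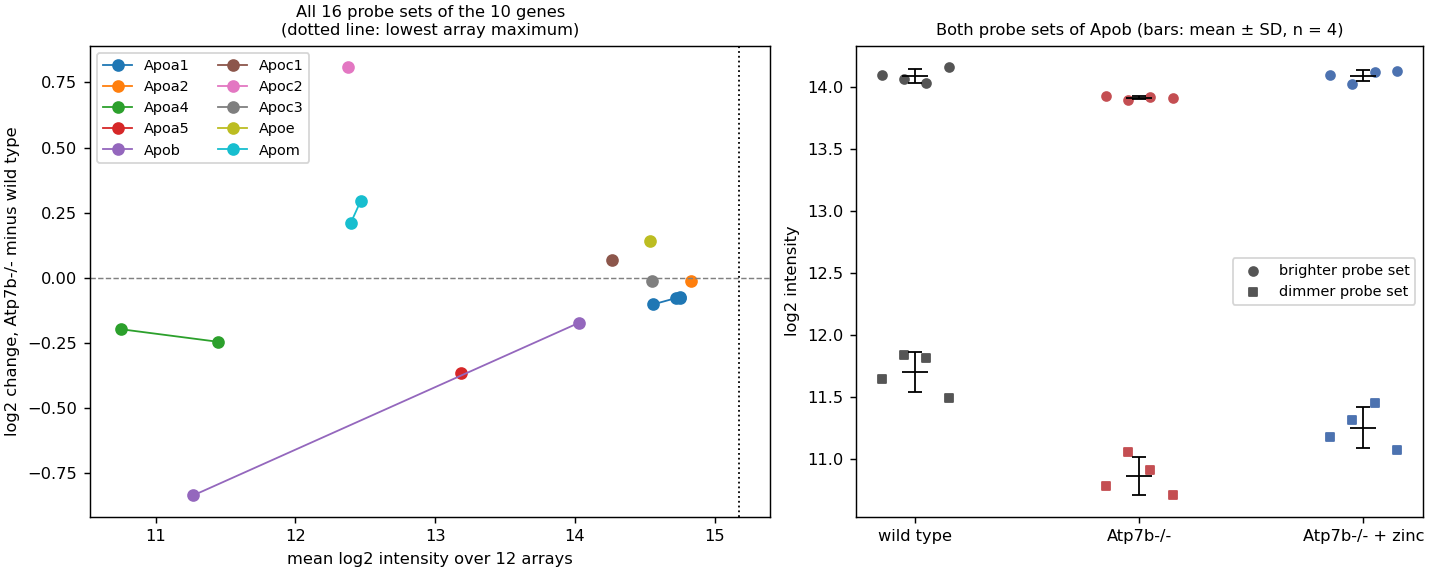
On the left, the log2 change between untreated Atp7b-/- and wild type is plotted against the mean log2 intensity for all 16 probe sets, with probe sets of 1 gene joined and the lowest array maximum (15.18) dotted. On the right, both Apob probe sets are shown by array, with bars for the mean and SD of 4 arrays: the change in untreated Atp7b-/- is -0.84 on the dimmer and -0.17 on the brighter.

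Apoe, the ligand for remnant uptake, read 14.51, 14.45, 14.46 and 14.51 in wild type liver. Untreated Atp7b-/- liver read 14.67, 14.59, 14.58 and 14.66, and zinc-treated liver 14.55, 14.52, 14.42 and 14.56. Every untreated array was above those of the other 2 groups, which overlapped. The changes of 0.14 against wild type (95% interval 0.00 to 0.28, adjusted p = 0.119, limma) and of -0.11 with zinc (95% interval -0.25 to 0.02, adjusted p = 0.322) did not pass. With a variance trend the first was called (adjusted p = 0.0356). Apoc1, which hinders the uptake of remnants, ranged from 14.22 to 14.26 in wild type, from 14.26 to 14.35 in untreated and from 14.24 to 14.26 in zinc-treated liver. Its change in untreated Atp7b-/- was 0.07 (95% interval -0.06 to 0.20, adjusted p = 0.404).

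Among the proteins of high density lipoprotein, none of the 3 members passed a test. Apoa1 ranged from 14.77 to 14.81 in wild type, from 14.68 to 14.77 in untreated and from 14.73 to 14.81 in zinc-treated liver. Its change in untreated Atp7b-/- was -0.08 (95% interval -0.20 to 0.05, adjusted p = 0.375, limma), and the 4 Apoa1 probe sets gave changes between -0.08 and -0.10. Apoa2 ranged from 14.80 to 14.88 over all 12 arrays, with a change of -0.01 (95% interval -0.14 to 0.12). Apom, the carrier of sphingosine-1-phosphate, read 12.33, 12.40, 12.45 and 12.16 in wild type liver. Untreated Atp7b-/- liver read 12.84, 12.67, 12.26 and 12.75, and zinc-treated liver 12.30, 12.57, 12.55 and 12.34. In the untreated group, 3 of 4 arrays were above every wild type array and replicate 3 was not. The change of Apom was 0.30 (95% interval 0.03 to 0.56, adjusted p = 0.0910), and without Atp7b-/- replicate 3 it was 0.42 (adjusted p = 0.0106).

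The room left above a signal differed between members. Array maxima ran from 15.18 to 15.24, and 6 of the 10 genes had a mean above 14. The mean over the 12 arrays lay 0.40 below the mean array maximum for Apoa2, 0.47 for Apoa1, 0.68 for Apoc3, 0.69 for Apoe, 0.96 for Apoc1 and 1.196 for Apob. For the other members it was 2.04 for Apoa5, 2.76 for Apom, 2.85 for Apoc2 and 3.78 for Apoa4. Both members called in untreated Atp7b-/- against wild type belong to the 4 with more room. The part of the ceiling in the small changes of the other genes was not tested.

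**Figure D3:**
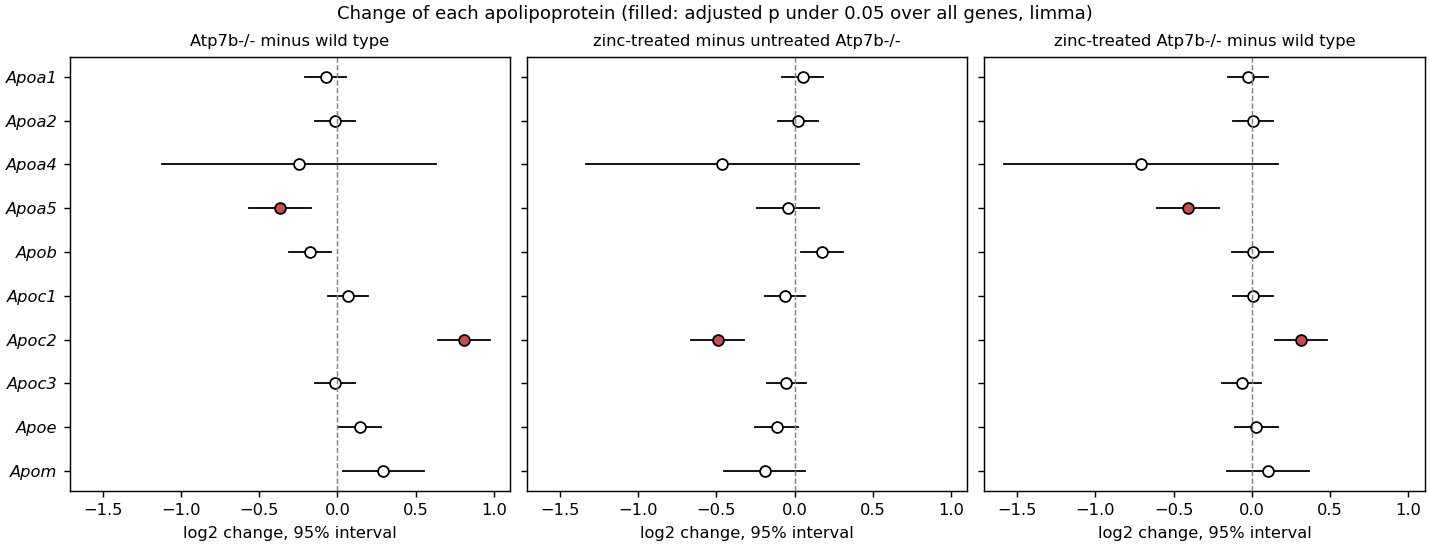
Log2 change of each apolipoprotein with its 95% interval in 3 comparisons, from the fit over all genes, with filled points where the adjusted p was under 0.05. Apoc2 is filled in all 3 panels and Apoa5 in both comparisons with wild type.

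Genes of a cluster were compared within arrays, where a shift of a whole array cancels. There, the difference of Apoc1 minus Apoc2 changed by -0.74 and that of Apoe minus Apoc2 by -0.67 from wild type to untreated Atp7b-/-. Apoc3 minus Apoa5 changed by 0.35. Each reached the smallest p that the exact permutation test allows (two-sided p = 0.0286), with no overlap between groups. Of 27 tests over 9 pairs, 10 had this p, and after adjustment 0 passed the threshold of 0.05 (lowest adjusted p = 0.0771). With 4 against 4 arrays, at least 16 of the 27 tests had to reach the smallest p before any could pass, so this count says little about whether neighbours differed. Apoc4, which lies beside Apoc2, read 13.56 ± 0.07, 13.51 ± 0.03 and 13.57 ± 0.05 in wild type, untreated and zinc-treated liver (SD, n = 4 each). None of the 10 measured neighbours within 100 kb of the chromosome 7 cluster was called in untreated Atp7b-/- against wild type or with zinc against untreated. Of all genes, 24.6% and 6.54% were called there. Against wild type, zinc-treated liver had lower Tomm40, a mitochondrial import channel gene (-0.40, adjusted p = 0.0185, limma). Tomm40 was the 1 of the 10 called in that comparison, against 7.62% of all genes. Beside the chromosome 9 cluster, 1 of 5 neighbours, the kinase gene Sik3, was higher in untreated Atp7b-/- (0.34, adjusted p = 0.0277, limma), where 14.3% of all genes were higher.

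The genes with profiles most like that of Apoc2 over the 12 arrays, by root mean square difference of centred values, were Ercc3 (0.08), Emc9 (0.08) and Asap1 (0.09). The profile of Apoc2 itself had a root mean square of 0.34 about its mean. Ercc3, a helicase gene of transcription factor TFIIH, read 7.35 ± 0.06, 8.22 ± 0.18 and 7.71 ± 0.12 in wild type, untreated and zinc-treated liver (SD, n = 4 each). For Apoa5 the nearest genes were Mpv17l2 (0.08), Cldnd2 (0.09) and Bdnf (0.10), against its own root mean square of 0.21. Mpv17l2 read 7.86 ± 0.09, 7.58 ± 0.12 and 7.57 ± 0.05 (SD, n = 4 each).

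Of 14 other measured apolipoprotein genes, 1 was lower and none higher in untreated Atp7b-/- against wild type, against 10.3% and 14.3% of all genes. That gene was Apol6, at 5.32 ± 0.12 against 5.63 ± 0.06 (change -0.30, adjusted p = 0.00992, limma). None was called with zinc against untreated or against wild type, where 6.54% and 7.62% of all genes were called. Saa1, an acute phase protein carried on high density lipoprotein, spread widely in wild type liver, with readings of 10.97, 14.03, 13.32 and 9.97. It also spread in zinc-treated liver, with 8.99, 12.36, 10.96 and 8.86, and less in untreated liver, with 12.58, 12.27, 11.67 and 11.13.

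Of the 15 genes of lipoprotein assembly and Apob RNA editing, 1 was higher and 3 were lower in untreated Atp7b-/- liver against wild type, a share near the 24.6% of all genes called there. Tm6sf2, needed to load lipid onto very low density lipoprotein, read 8.22, 8.04, 8.24 and 8.30 in wild type and 9.88, 9.72, 9.72 and 9.78 in untreated liver. This rise of 1.57 (adjusted p = 2.21e-05, limma) left the groups far apart. With zinc, Tm6sf2 read 9.23, 8.80, 8.62 and 9.66, lower than untreated by -0.70 (adjusted p = 0.0292) and higher than wild type by 0.88 (adjusted p = 0.00664). Without zinc-treated replicates 2 and 3 the change against untreated was -0.33 and no longer called, and leaving out zinc-treated replicate 2 or 3 alone or any one untreated array also ended the call.

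A1cf encodes the partner of the enzyme that edits Apob RNA, the step that yields the short form of the protein. It read 8.08, 8.24, 8.16 and 8.01 in wild type, 7.27, 7.37, 7.27 and 7.40 in untreated and 7.72, 7.50, 7.72 and 7.90 in zinc-treated liver. A1cf thus fell by 0.80 on the log2 scale in untreated Atp7b-/- (adjusted p = 2.60e-05, limma). The zinc-treated arrays lay between the other groups, 0.38 above untreated (adjusted p = 0.0217) and -0.41 against wild type (adjusted p = 0.0116). The first of these calls was lost without zinc-treated replicate 1, 3 or 4 or untreated replicate 1 or 3, and the second without zinc-treated replicates 2 and 3 together. Apobec1, the editing enzyme itself, was not called, and read 9.39 on wild type replicate 4 against 7.69 to 7.96 on the other wild type arrays. Editing was not measured here.

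Pltp, which transfers phospholipid between particles, was -0.62 lower in untreated Atp7b-/- (adjusted p = 0.0122, limma) and 0.64 higher with zinc than without (adjusted p = 0.0282). Its zinc-treated arrays spread from 8.88 to 9.90, while the wild type arrays kept within 9.31 to 9.39, and the call with zinc was lost without zinc-treated replicate 1 or untreated replicate 1, 2 or 4. Mia2, a secretion factor gene, was lower by -0.35 (adjusted p = 0.0225), a call lost without wild type replicate 2 or 3 or untreated replicate 3 or 4. Mttp, which transfers lipid onto Apob, was not called in any of the 3 comparisons, with means of 11.69, 11.69 and 11.65 in wild type, untreated and zinc-treated liver. With zinc against untreated, 2 of the 15 genes were higher and 1 lower, against 6.54% of all genes called, and with zinc against wild type 1 was higher and 1 lower, against 7.62%.

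The plasma enzymes of lipoproteins and their inhibitors had 13 measured members, of which 2 were higher and 4 lower in untreated Atp7b-/- against wild type, where 14.3% of all genes were higher and 10.3% lower. Lpl, the lipase that Apoc2 activates, read 9.83, 9.95, 9.92 and 9.60 in wild type and 11.81, 11.38, 11.82 and 12.11 in untreated liver. It rose by 1.95 on the log2 scale (adjusted p = 9.92e-07, limma). With zinc Lpl read 12.38, 12.62, 12.12 and 12.70, higher than untreated by 0.68 (adjusted p = 0.0199) and than wild type by 2.63 (adjusted p = 1.87e-07). Each of its zinc-treated arrays was above each untreated array, whereas for Apoc2 each was below. The call of Lpl against untreated was lost without zinc-treated replicate 2 (0.62) or 4 (0.59), and without zinc-treated replicates 2 and 3 and Atp7b-/- replicate 1 (0.77).

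Lcat, which esterifies cholesterol on high density lipoprotein with Apoa1 as its cofactor, was lower in untreated Atp7b-/- by -0.43 (adjusted p = 0.00480, limma). Pcsk6, a protease gene, was lower by -0.67 (adjusted p = 0.0212), a call lost without replicate 2 or 4 of either group. Lmf1, which helps lipases fold, was higher by 0.40 (adjusted p = 0.0235), but with its second probe set the change was -0.094 and with the mean of its probe sets 0.15, and the call was also lost with quantile normalization, with only both groups fitted, and without wild type replicate 2 or 3 or untreated replicate 3 or 4. With zinc, Lpl was the 1 member called against untreated. Against wild type, Lpl was higher and Angptl8, an inhibitor of lipoprotein lipase, lower by -1.92 (adjusted p = 0.0311). Without zinc-treated replicates 2 and 3 the change of Angptl8 was -1.43 and not called, and the call was also lost without wild type replicate 1, 2 or 3 or zinc-treated replicate 2, 3 or 4 alone and with a robust variance model.

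Of 13 measured genes of lipoprotein receptors and uptake, 1 was higher and 1 lower in untreated Atp7b-/- against wild type, against 24.6% of all genes called. Sdc1, a heparan sulfate proteoglycan that takes up remnants, read 10.45, 10.54, 10.71 and 10.68 in wild type and 11.51, 11.58, 11.36 and 11.46 in untreated liver, a rise of 0.88 (adjusted p = 0.000185, limma). With zinc it read 10.66, 10.35, 10.27 and 10.89, lower than untreated by -0.93 (adjusted p = 0.000595) and overlapping the wild type arrays. Scarb1, the receptor of high density lipoprotein, was lower by -0.31 in untreated Atp7b-/- (adjusted p = 0.0242) and higher with zinc than without by 0.34 (adjusted p = 0.0391). The first call of Scarb1 was lost with its second probe set (-0.11), with the mean of its probe sets (-0.22), with median centring, and without wild type replicate 2 or untreated replicate 2 or 3. The second was lost in 14 of 24 settings, among them those probe set choices (0.30 and 0.32), median centring, and those without any one zinc-treated array, untreated replicate 2, 3 or 4, or wild type replicate 3. None of the 13 was called between zinc-treated Atp7b-/- and wild type. Of 6 genes of cholesterol export, 2 were lower in untreated Atp7b-/-, where 10.3% of all genes were: Abca1, which loads lipid onto Apoa1 (-0.38, adjusted p = 0.00248), and Abcg8, which moves sterols into bile (-0.50, adjusted p = 0.00655). None of the 6 was called in either zinc comparison.

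**Figure D4:**
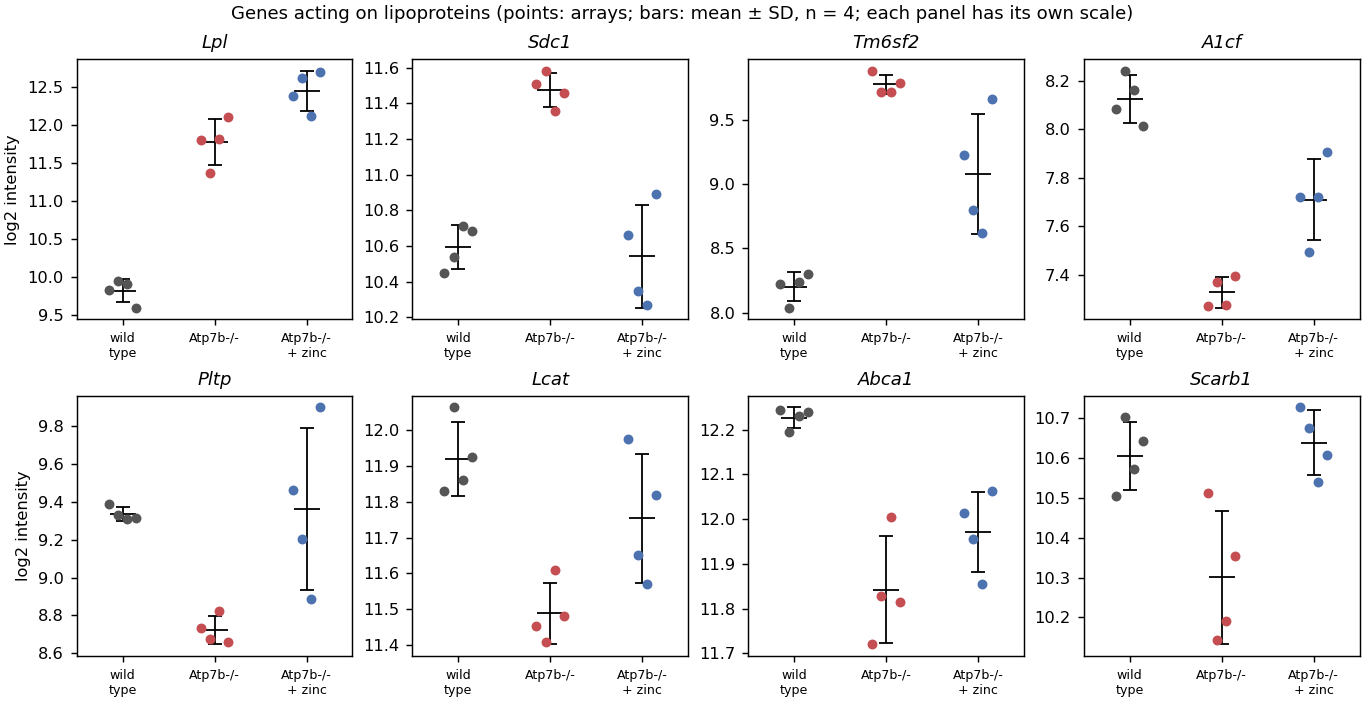
Log2 intensity of 8 genes that act on lipoproteins, by array and group, with the mean and SD of 4 arrays as bars and a separate scale in each panel. Lpl is highest in the zinc-treated group, Sdc1 and Tm6sf2 are highest in untreated Atp7b-/-, and A1cf is lowest there.

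Of 28 measured regulators of apolipoprotein transcription, 2 were higher and 7 lower in untreated Atp7b-/- against wild type, against 14.3% and 10.3% of all genes. Nr0b2, a nuclear receptor that represses others, fell by 1.37 on the log2 scale (adjusted p = 0.00197, limma). Foxa3, a liver forkhead factor, fell by 0.64 (adjusted p = 0.00219), and Rxra, the partner of many nuclear receptors, by 0.59 (adjusted p = 0.00427). Cebpb, a factor of the acute phase response, rose by 1.05 (adjusted p = 0.00285). Hnf4a, a main activator of apolipoprotein genes, was chosen after its values were seen: it was -0.25 lower (adjusted p = 0.0233), a call lost in 7 of 25 settings, among them median centring, the second probe set with a change of -0.08 and those without wild type replicate 1 or untreated replicate 1 or 4.

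With zinc against untreated Atp7b-/-, 2 of the 28 regulators were higher and 2 lower, against 1.70% and 4.84% of all genes. Esrra, a nuclear receptor of energy metabolism, was lower by -0.45 (adjusted p = 0.0118, limma). Nr5a2, an activator of bile acid and apolipoprotein genes, was higher by 0.71 (adjusted p = 0.0199), although its second probe set gave -0.22 and the mean of its probe sets 0.12. Nr0b2 was higher by 1.11 (adjusted p = 0.0231), and Nr1h3, a sterol receptor, lower by -0.35 (adjusted p = 0.0489). Leaving out single arrays ended the call of Nr0b2 (zinc-treated replicate 1 or 4, untreated replicate 3 or 4) and of Nr5a2 (zinc-treated replicate 1, 2 or 3, untreated replicate 3 or 4). That of Nr1h3 was lost without any single array other than untreated replicate 2, and that of Esrra without zinc-treated replicates 2 and 3 together, where the change was -0.47 from fewer arrays, and with its second probe set (-0.38). Against wild type, zinc-treated liver had lower Foxa3 (-0.84, adjusted p = 0.000905) and higher Nr5a2 (0.72, adjusted p = 0.0151), the latter lost with its second probe set (0.02), with the mean of its probe sets (0.18), without wild type replicate 1 and without zinc-treated replicates 2 and 3.

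Some markers of other liver cells differed between groups. Of 12 macrophage markers, 7 were lower in untreated Atp7b-/- against wild type, where 10.3% of all genes were lower. For each of these 7, the arrays of both groups overlapped. The mean of the 12 also overlapped, from 7.95 to 8.87 in wild type, from 7.52 to 8.52 in untreated and from 7.70 to 8.07 in zinc-treated liver. Untreated replicate 1 read 8.52, while untreated replicates 2, 3 and 4 read 7.53, 7.77 and 7.52, below every wild type array. Macrophages also make Apoe, Lpl and Apoc2. Of 8 endothelial markers, 3 were lower and 1 higher in untreated Atp7b-/- against wild type, against 10.3% and 14.3% of all genes. Their mean was 7.40 to 7.57 in untreated liver and 7.64 to 7.84 over both other groups. With zinc against untreated, 2 of 8 stellate and fibroblast markers were higher, against 1.70% of all genes. These were Reln, by 0.61, and Col3a1, by 0.74, with a list mean of 8.42 to 8.62 against 8.12 to 8.32. The 4 adipocyte markers averaged 5.42 on zinc-treated replicate 2 and at most 4.74 on the other arrays. Among them only Adipoq spread widely in the zinc-treated group (SD 1.61), while Cidec, Lep and Retn had SDs of 0.15, 0.13 and 0.20 there. The part of these cells in the changes of the apolipoproteins and of Lpl was not tested. Of the 12 hepatocyte markers, 1 was higher and none lower in untreated Atp7b-/- against wild type, where 14.3% of all genes were higher and 10.3% lower.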

How the data were processed

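The authors deposited log2 intensities, 1 value per probe set and array, for 45101 probe sets. The labels do not state how they were made and normalized, and they were used without further scaling. The 64 control probe sets, 932 with several gene symbols and 9160 with none were left out of the tests. The remaining 34945 name 18193 genes, and 34741 matched the RefSeq gene table.

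Groups were taken from the labels and compared in 1 fit over the 12 arrays with limma 3.58.1 in R 4.3.3, at a Benjamini-Hochberg adjusted p under 0.05. Gene pairs and probe set pairs were compared with exact permutation tests (scipy 1.17.1). The fit was tested on simulated data. Errors after ± are SDs between 4 arrays, whose number limits the precision.

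The members and gene lists were chosen with earlier results of these data known. All 10 members are given. Of each list, up to 4 called genes with the smallest adjusted p per comparison are named, and of each called member the 3 genes most like it. Genes named beyond this rule (Apobec1, Mttp, Saa1, Hnf4a, and the neighbours of the clusters) were chosen after their values were seen. Alternatives covered normalization, choice of probe set, variance model, dim genes, array weights, a replicate block and leaving out arrays. The settings without zinc-treated replicates 2 and 3, the tests of probe set pairs and the genes beside the clusters were added after seeing the data.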

Additional observations from a re-analysis of the deposited data

Results flagged for a closer look

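Of 30 sets of 4 arrays (10 genes in 3 groups), 1 had an array far from the others. In untreated Atp7b-/- liver, Apoc3 read 14.53 on replicate 1 (14.5349 before rounding), while the other 3 arrays read 14.57. The gap was 0.910 of the whole range, above Dixon's 95% critical value for 4 arrays. Chance alone passes this value in about 1 of 20 groups. The same array had the lowest median correlation with its group (0.991).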

How the results depend on the processing

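The rise of Apoc2 and the fall of Apoa5 in untreated Atp7b-/- against wild type, and the lower Apoc2 with zinc against untreated, kept their direction and call in each of the 25 other settings. Apoc2 and Apoa5 have 1 probe set each, so the settings that change the choice of probe set left their values as they were. Those settings could not test these changes. The number of changed apolipoproteins in untreated Atp7b-/- against wild type, 2 as reported, was 4 with an intensity trend in the variance. It was 3 with the mean of all probe sets, the second probe set, array weights, dim genes left out, and without Atp7b-/- replicate 3. Zinc-treated against untreated, it was 1 as reported and 2 both with the intensity trend and when probe sets of a gene were averaged. Zinc-treated against wild type, it was 2 as reported, 3 with the second probe set and 1 with quantile normalization. When single arrays were left out it was 1 to 2. It was 0 without zinc-treated replicates 2 and 3, also when Atp7b-/- replicate 1 was left out with them. In those 2 settings fewer arrays were fitted.

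Over all genes, the 1190 called with zinc against untreated became 1861 with array weights and 689 to 1158 when single arrays were left out. Without zinc-treated replicates 2 and 3 they numbered 614, and 598 when Atp7b-/- replicate 1 was left out too. The 1386 called with zinc against wild type became 699 and 881 in those same settings. Of the calls with zinc against untreated, 26.0% were higher as reported and 40.1% with quantile normalization. In untreated against wild type 58.2% were higher as reported, 68.1% with median centring and 49.6% with quantile normalization. With the second probe set, Lmf1 in untreated Atp7b-/- reversed to -0.094 and Nr5a2 with zinc against untreated to -0.22. The cause of these shifts was not tested.

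The labels tie the replicate numbers to nothing shared. Deviations from the group means correlated above 0.1 in 5 of 12 pairs of arrays with the same number (median 0.04). Among pairs with different numbers 3 of 36 did (median -0.01), a smaller share. What arrays with the same number may share was not tested, and the main fit did not pair them. With a replicate block, 2, 1 and 2 apolipoproteins and 4449, 1171 and 1353 genes were called in the 3 comparisons, and no call of an apolipoprotein changed. Under the block the calls of Scarb1 with zinc against untreated (0.34, adjusted p = 0.0568, limma) and of Angptl8 with zinc against wild type (-1.92, adjusted p = 0.0602) were lost. For the 6 of the 10 members with a mean above 14, near the array maximum, the part of the ceiling in the size of change was not tested.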
